A study of Mus musculus with 6 samples.

Results

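The Slc25a genes encode the mitochondrial carrier family, and 46 of them, chosen by a platform gene symbol that starts with Slc25a and a number, were measured among 19505 named genes and 22206 gene probe sets in mouse pancreatic islets. Each of the 46 had 1 probe set, so no choice between probe sets was needed. RNA came from islets of 3 Wt samples (Control in the sample labels) and 3 Pax8 +/- samples, all from males on a C57BL/6 background killed at 9 months of age after a fast of 16 hours. Pax8 +/- animals have Pax8, which encodes a transcription factor of the thyroid gland, disrupted on 1 of its copies in every cell of the body, so that thyroid and islet were not altered separately. Islets were freed with collagenase and picked by hand, RNA was hybridized to Clariom S arrays with 1 array per sample, and the methods do not say whether an array holds 1 animal or several. P-values therefore measure the spread between these samples, which may be partly technical.

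Mitochondrial carriers are proteins of the inner mitochondrial membrane, which is otherwise closed to most metabolites. They exchange adenine nucleotides, phosphate, citrate, malate, amino acids, coenzymes and metals between the matrix and the cytosol, are made from nuclear genes and enter the inner membrane through the TIM22 import machinery. In beta cells, the ATP exported by the adenine nucleotide carriers closes the potassium channels that start insulin release, and citrate, malate and aspartate that leave the matrix feed the shuttles coupled to glucose use.

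The promoters of 5 members that the results turn on are shown with their sequence elements: Slc25a42, Slc25a23, Slc25a39 and Slc25a12, which had the 4 largest differences between the groups, and Slc25a5, the brightest member. The groups overlapped in all 5. They are RefSeq windows of build GRCm38.p6, from 250 bases before to 50 after a start site, read 5′ to 3′ on the strand of the gene. Capitals mark GGGCGG, the GC box, and CCAAT, each on either strand (as CCGCCC and ATTGG), and although the ends of both elements can share letters, they do not in these 5 windows. Slc25a42 lies at chr8:70212232-70212531 on the minus strand, Slc25a23 (1 of its 2 windows) at chr17:57059814-57060113 on the minus strand, Slc25a39 at chr11:102407468-102407767 on the minus strand, Slc25a12 at chr2:71367706-71368005 on the minus strand and Slc25a5 at chrX:36795347-36795646 on the plus strand.
Slc25a42: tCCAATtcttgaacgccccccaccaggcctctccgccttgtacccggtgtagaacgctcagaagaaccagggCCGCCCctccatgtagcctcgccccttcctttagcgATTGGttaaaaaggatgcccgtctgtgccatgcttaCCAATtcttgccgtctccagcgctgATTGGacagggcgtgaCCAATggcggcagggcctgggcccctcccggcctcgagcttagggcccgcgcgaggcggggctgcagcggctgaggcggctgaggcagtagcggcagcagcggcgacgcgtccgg
Slc25a23: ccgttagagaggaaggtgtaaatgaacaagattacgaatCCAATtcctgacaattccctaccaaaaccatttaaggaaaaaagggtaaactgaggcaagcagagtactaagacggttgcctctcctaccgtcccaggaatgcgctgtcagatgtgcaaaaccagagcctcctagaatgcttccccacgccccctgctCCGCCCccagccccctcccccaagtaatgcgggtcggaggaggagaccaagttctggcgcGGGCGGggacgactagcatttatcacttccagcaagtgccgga
Slc25a39: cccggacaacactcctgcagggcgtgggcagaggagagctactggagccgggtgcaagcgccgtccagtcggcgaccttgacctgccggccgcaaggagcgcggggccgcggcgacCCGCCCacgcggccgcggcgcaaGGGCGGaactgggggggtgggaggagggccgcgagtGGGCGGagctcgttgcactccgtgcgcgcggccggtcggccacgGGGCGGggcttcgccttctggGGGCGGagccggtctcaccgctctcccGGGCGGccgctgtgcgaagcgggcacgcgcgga
Slc25a12: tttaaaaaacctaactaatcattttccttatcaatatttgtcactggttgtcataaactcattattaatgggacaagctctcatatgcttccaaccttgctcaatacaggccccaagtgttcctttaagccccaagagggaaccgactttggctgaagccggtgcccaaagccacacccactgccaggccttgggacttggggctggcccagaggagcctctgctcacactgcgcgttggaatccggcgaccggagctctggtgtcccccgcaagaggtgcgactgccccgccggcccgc
Slc25a5: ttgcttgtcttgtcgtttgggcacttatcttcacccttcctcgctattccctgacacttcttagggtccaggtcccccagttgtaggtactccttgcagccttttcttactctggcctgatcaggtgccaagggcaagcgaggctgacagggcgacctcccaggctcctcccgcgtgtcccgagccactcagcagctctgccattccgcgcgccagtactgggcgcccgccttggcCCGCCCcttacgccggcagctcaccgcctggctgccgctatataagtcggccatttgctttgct

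Slc25a42 held 5 matches to CCAAT and 1 to GGGCGG, Slc25a39 held 6 to GGGCGG and none to CCAAT, and Slc25a12 held neither. Of the 46 members, 36 matched the promoter table, with 46 windows of 300 bases in all. GGGCGG was present in 38 of these windows (82.6%), against 35.7% of all 32851 windows. For CCAAT the shares were 47.8% and 37.4%, and for CACGTG, the E-box, 17.4% and 7.15%. AGGTCA, the core element read by nuclear receptors such as the thyroid hormone receptors, stood in 4 member windows (8.7%) and in 16.3% of all windows. Among the windows shown, only that of Slc25a39 held AGGTCA, with 1 match that is not marked. CACGTG and AGGTCA were also searched on both strands. Median GC content was 59.3% in member windows and 52.7% in all windows. Several windows can belong to 1 gene, so these shares are descriptions of letters and not of bound sites.

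Levels are log2 values of RMA (robust multi-array average), a method that subtracts background, brings the arrays to a common distribution and gives 1 value per probe set. The array medians of the gene probe sets were 5.25 to 5.33. An array's background was taken as the 95th percentile of its 5222 negative control probe sets, which lay between 7.60 and 7.97. On this measure 14 members were above background on all 6 arrays, 7 on 1 to 5 arrays and 25 on none, while 21.7% of all gene probe sets were above background on every array and 67.2% on none. No member reached the upper end of the scale, within 0.1 of an array's highest value. A level at background has no exact size, and levels of different probe sets are not on a common scale per molecule.

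The 6 arrays did not divide cleanly by genotype. Across gene probe sets, which are not independent replicates, Pax8 +/- replicate 1 correlated with the Wt arrays at r = 0.981 to 0.984 and with the other Pax8 +/- arrays at 0.967 and 0.963. Wt replicate 3 correlated with the Pax8 +/- arrays at 0.978 to 0.983 and with Wt replicates 1 and 2 at 0.981 and 0.9705. Of 15 listed beta-cell markers 13 were measured, of which Ins2 and Iapp reached the top of the scale on every array, where no difference can be read. For the remaining 11 the Pax8 +/- mean was above the Wt mean, and their mean log2 level was 11.21, 9.77 and 12.63 on Wt replicates 1, 2 and 3 and 11.08, 13.76 and 13.74 on the Pax8 +/- replicates. Mafa, a beta-cell transcription factor, was at background on all arrays. Acinar genes, which mark the exocrine tissue around islets, were also present, with 4 of 11 measured markers at the top of the scale on all 6 arrays. Duct markers (7 measured of 9) averaged 12.46 to 13.32 on the Wt arrays and 13.35, 11.68 and 11.35 on the Pax8 +/- arrays, and hypoxia targets (11 measured of 12) averaged 11.36 to 12.62 and 12.15, 8.94 and 8.78. Delta-cell markers (3 of 3 measured) averaged 11.53, 11.19 and 13.11 in Wt and 11.91, 12.92 and 12.62 in Pax8 +/- islets. These means include Sst, which was at the top of the scale on Pax8 +/- replicates 2 and 3. The 2 delta-cell markers below the top averaged 8.31, 8.72 and 9.80 in Wt and 8.93, 9.41 and 8.97 in Pax8 +/- islets. Hhex, 1 of these 2, was at background on all arrays. Genes of dissociation stress (6 of 6) averaged 9.90, 10.56 and 9.19 in Wt and 9.87, 8.22 and 8.66 in Pax8 +/- islets. In such bulk RNA, fewer cells of a type and less RNA per cell cannot be told apart.

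**Figure D1:**
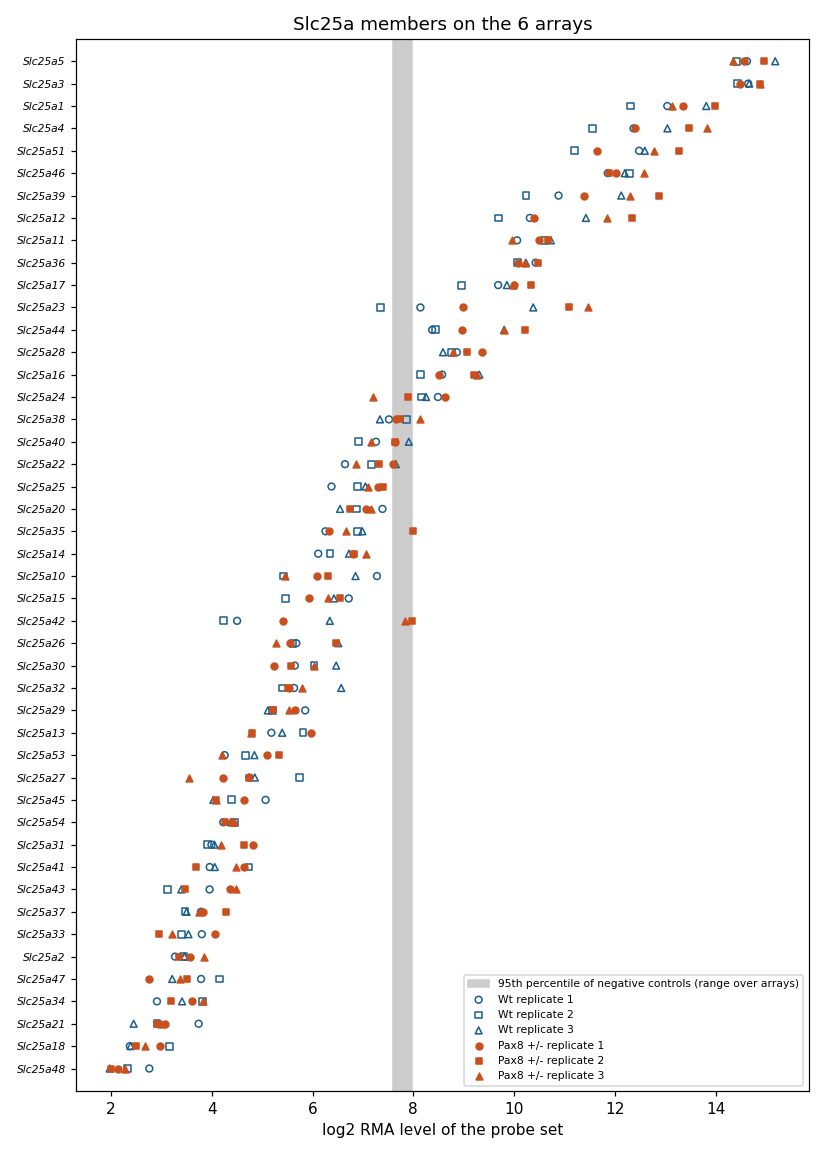
Log2 RMA level (x axis) of the 46 Slc25a probe sets (y axis, ordered by mean level) on each of the 3 Wt arrays (open blue) and 3 Pax8 +/- arrays (filled orange), with the range over arrays of the 95th percentile of the negative controls in grey. Only 14 members lie right of the grey band on every array, and Slc25a23 and Slc25a42 are the most widely spread.

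Few carriers differed between the genotypes by the thresholds of the study, a fold change of at least 2.5 and an unadjusted p of at most 0.05. Here p came from limma and the fold change from the difference of group means. Slc25a42, which brings coenzyme A into the matrix in exchange for adenine nucleotides, was the 1 member of 46 called higher, where 0.648% of all gene probe sets were, and 0 members were called lower, where 0.351% were. In place of the mean, a Tukey biweight, which down-weights an outlying array, gave 232 gene probe sets higher (1.04%) and 119 lower (0.536%). These are the counts that the study reports, and Slc25a42 was again the only member called. No member reached an adjusted p under 0.05 in limma, with a smallest adjusted p of 0.745, and neither did any other gene probe set. At an unadjusted p of at most 0.05 there were 2 members, Slc25a42 and Slc25a27, against 5.91% of all gene probe sets. The group means were higher in Pax8 +/- islets for 32 of the 46 members, and for 49.2% of all gene probe sets. The median log2 difference, Pax8 +/- minus Wt, was 0.11 over the members and -0.01 over all gene probe sets.

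Among the 14 members above background on all arrays, 12 had a higher mean in Pax8 +/- islets, with a median log2 difference of 0.39. Over the 4761 gene probe sets that were equally above background and, like the members, below the upper end of the scale, the share was 51.8% and the median 0.02. None of the 14 was called, where 1.07% of those 4761 were called higher and 0.483% lower. For 5 of the 14 the difference was at least 0.5 and for 0 it was -0.5 or less, as for 18.2% and 14.4% of those 4761. Of the 46 members, 4 had every Pax8 +/- array above every Wt array (Slc25a14, Slc25a17, Slc25a25 and Slc25a31) and 0 the reverse, where all gene probe sets gave 4.52% and 5.14%. Only Slc25a17 of these 4 was above background. For 35 of the 46 members the 95% interval of the difference lay within a 2.5-fold change either way, but this held for only 8 of the 14 brighter ones.

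**Figure D2:**
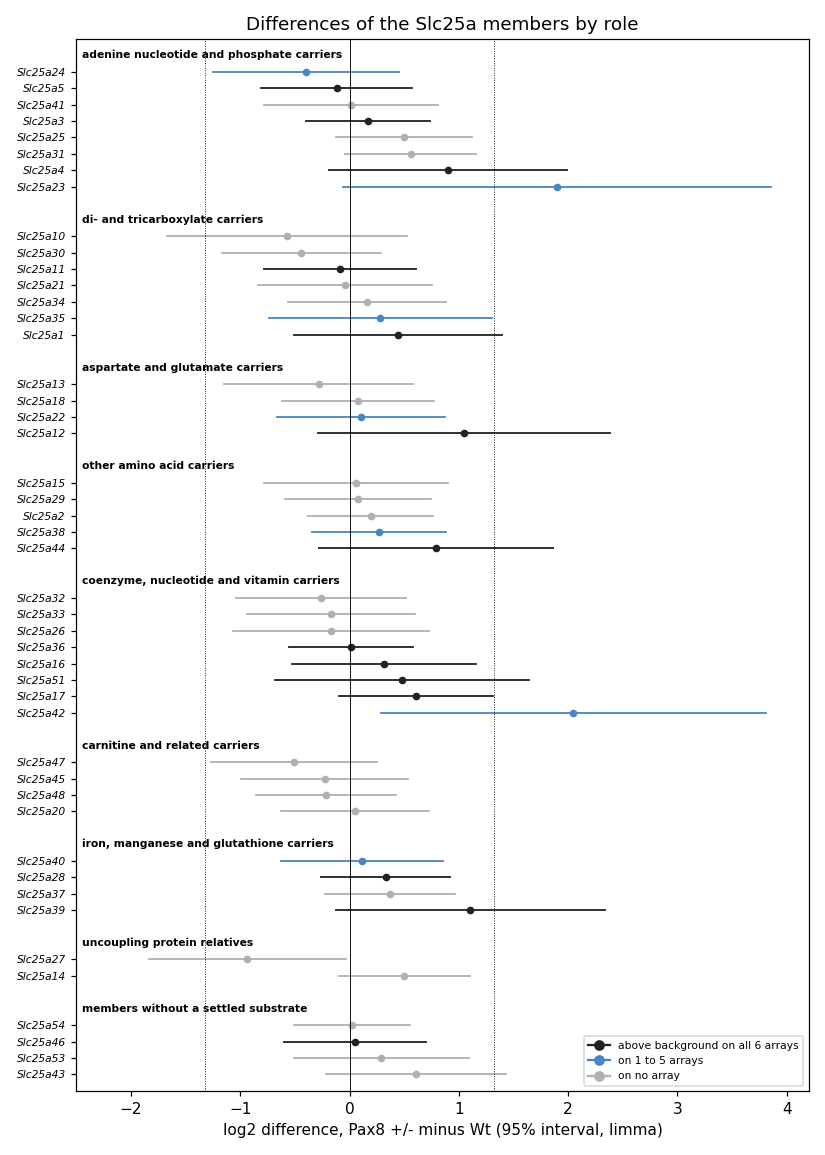
Log2 difference, Pax8 +/- minus Wt (x axis), of each of the 46 members grouped by transported substrate (y axis), as points with 95% intervals from limma over 3 arrays per group, coloured by the number of arrays above background, with dotted lines at a 2.5-fold change. The intervals of Slc25a42 and, on the lower side, Slc25a27 are the only ones that leave out 0.

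The 8 carriers of adenine nucleotides and phosphate include those that supply the ATP synthase and export its product. Slc25a5, the adenine nucleotide translocase of growing cells, lay at 14.62, 14.41 and 15.18 on Wt replicates 1, 2 and 3 and at 14.56, 14.95 and 14.34 on the Pax8 +/- replicates. Slc25a3, which imports the phosphate used to make ATP, lay at 14.64, 14.43 and 14.66 in Wt and at 14.48, 14.89 and 14.89 in Pax8 +/- islets. Both carriers were bright and even, and the groups overlapped in each case. The log2 difference was -0.12 (standard error 0.30) for Slc25a5 and 0.17 (standard error 0.25) for Slc25a3, with 95% intervals of -0.81 to 0.57 and -0.40 to 0.74.

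The adenine nucleotide translocase of muscle and heart, Slc25a4, had levels of 12.37, 11.56 and 13.04 in Wt and 12.40, 13.46 and 13.82 in Pax8 +/- islets. Pax8 +/- replicates 2 and 3 were above every Wt array, while replicate 1 lay inside the Wt range. Slc25a4 differed by 0.90 (standard error 0.48, unadjusted p = 0.0922 by limma).

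Slc25a23, a calcium-regulated carrier that exchanges ATP-magnesium for phosphate and so sets the size of the matrix nucleotide pool, had the second highest difference of the family. It lay at 8.14, 7.35 and 10.38 on Wt replicates 1, 2 and 3 and at 8.99, 11.09 and 11.47 on the Pax8 +/- replicates. Wt replicate 2 was at background, Wt replicate 3 exceeded Pax8 +/- replicate 1, and the spread over the 6 arrays, 4.13 log2 units, was the widest of any member. Group means were 8.62 ± 1.57 and 10.52 ± 1.34 (SD, n = 3 each). They differed by 1.90 (standard error 0.86) with a 95% interval of -0.06 to 3.86 and an unadjusted p = 0.0562 by limma.

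None of its relatives was called. Slc25a24, of the same calcium-regulated type, averaged 8.30 ± 0.17 in Wt and 7.91 ± 0.72 in Pax8 +/- islets (SD, n = 3 each), which differ by -0.40 (standard error 0.37), and the differences between these carriers were not tested. Slc25a25 and Slc25a41 were at background on all 6 arrays, at differences of 0.50 and 0.02. Slc25a41 is the neighbour of Slc25a23 on chromosome 17 with no protein-coding gene between them in RefSeq. Slc25a31, the translocase known from testis, was likewise at background, with levels of 3.99, 3.92 and 4.05 in Wt and 4.81, 4.63 and 4.19 in Pax8 +/- islets. The groups did not overlap there, and the difference was 0.56 (standard error 0.26, unadjusted p = 0.0631 by limma).

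Of the 7 carriers grouped with di- and tricarboxylates, 3 had a higher and 4 a lower mean in Pax8 +/- islets and 0 were called. Slc25a1, the citrate carrier that supplies the cytosol with the carbon of fatty acids, lay at 13.04, 12.31 and 13.81 in Wt and at 13.36, 13.99 and 13.14 in Pax8 +/- islets. Its groups overlapped widely, and the difference was 0.44 (standard error 0.42). With an array left out it ran from 0.07 (without Wt replicate 2) to 0.82 (without Wt replicate 3). Slc25a11, which exchanges malate for oxoglutarate in the malate-aspartate shuttle, was among the even ones, at means of 10.46 ± 0.36 and 10.37 ± 0.37 (SD, n = 3 each).

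The dicarboxylate carrier Slc25a10, which exchanges malate or succinate for phosphate, was at background, with 7.28, 5.43 and 6.85 in Wt and 6.08, 6.31 and 5.46 in Pax8 +/- islets. Slc25a30, a relative first described in kidney, was also at background, with 5.65, 6.03 and 6.47 in Wt and 5.24, 5.56 and 6.02 in Pax8 +/- islets. Both had overlapping groups. Their differences of -0.57 (standard error 0.48) and -0.44 (standard error 0.32) were among the 4 lower members with the smallest p, at unadjusted p-values of 0.267 and 0.203 by limma. Slc25a21, a carrier of oxoadipate, and Slc25a34 were at background too, and Slc25a35 was above it on 1 array.

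Of the 4 aspartate and glutamate carriers, only Slc25a12 was above background on all arrays. It is the calcium-activated exchanger of aspartate for glutamate that drives the malate-aspartate shuttle in excitable tissues, and is named here after its values were seen. Slc25a12 lay at 10.31, 9.69 and 11.42 on Wt replicates 1, 2 and 3 and at 10.39, 12.35 and 11.83 on the Pax8 +/- replicates. Pax8 +/- replicates 2 and 3 were above all Wt arrays, and replicate 1 was below Wt replicate 3. The difference was 1.05 (standard error 0.58, unadjusted p = 0.109 by limma), with a 95% interval of -0.29 to 2.38. Slc25a13, the liver form of the same exchanger, was at background on all 6 arrays with a difference of -0.28, as was the glutamate carrier Slc25a18 at 0.08. Slc25a22, the other glutamate carrier, was above background on 1 array, with levels of 6.64 to 7.65 in Wt and 6.87 to 7.59 in Pax8 +/- islets.

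All 5 other amino acid carriers had a higher mean in Pax8 +/- islets, 0 were called, and the brightest was Slc25a44. This carrier of branched-chain amino acids, also named after its values were seen, lay at 8.37, 8.44 and 9.80 in Wt and at 8.97, 10.21 and 9.80 in Pax8 +/- islets. Wt replicate 3 was again inside the Pax8 +/- range. Its difference was 0.79 (standard error 0.47). The glycine carrier of heme synthesis, Slc25a38, was near background at 7.34 to 7.86 in Wt and 7.66 to 8.13 in Pax8 +/- islets. The ornithine carriers Slc25a15 and Slc25a2 and the basic amino acid carrier Slc25a29 were at background, with differences of 0.06, 0.19 and 0.08.

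**Figure D3:**
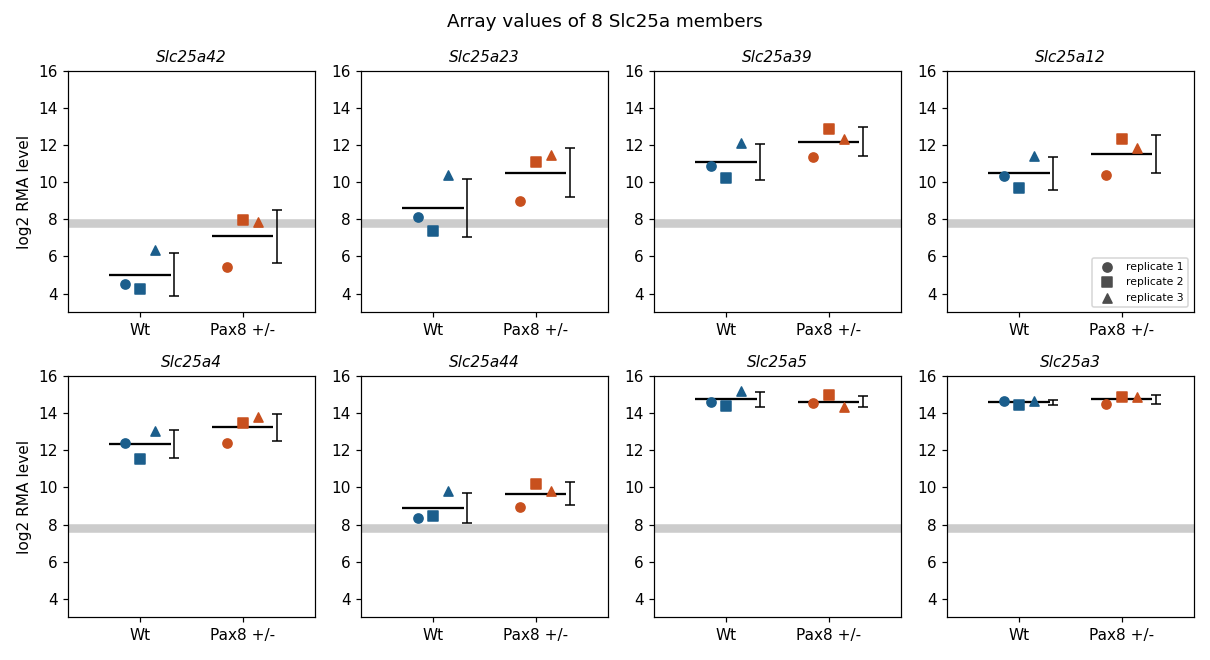
Log2 RMA level (y axis) of 8 members on the 3 Wt and 3 Pax8 +/- arrays, with the marker shape giving the replicate, horizontal lines the group means, bars 1 SD either way and the grey band the range of the 95th percentile of the negative controls. In Slc25a42, Slc25a23, Slc25a39, Slc25a12 and Slc25a4, Pax8 +/- replicate 1 lies near the Wt arrays and replicates 2 and 3 above them, while Slc25a5 and Slc25a3 are even.

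Coenzymes, nucleotides and vitamins are carried by 8 measured members, and the only call of the family is among them. Slc25a42 lay at 4.50, 4.24 and 6.34 on Wt replicates 1, 2 and 3 and at 5.42, 7.97 and 7.83 on the Pax8 +/- replicates. It was above background on Pax8 +/- replicate 2 alone, Pax8 +/- replicate 3 was just under that array's background, and Pax8 +/- replicate 1 was inside the Wt range. The difference of means was 2.05 (standard error 0.77, 95% interval 0.29 to 3.81), with an unadjusted p = 0.0277 and an adjusted p = 0.745 by limma. Since Slc25a42 was at background on every Wt array, the log2 differences printed for it, its rank included, are differences between measured values of no exact size, and no fold change is given. The study lists this gene from the same samples, so its direction is not independent evidence.

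That call rests on single arrays. Leaving out Wt replicate 1 (1.79) or 2 (1.65) ended it, as did leaving out Pax8 +/- replicate 2 (1.60) or 3 (1.67), while it was kept without Wt replicate 3 (2.71) or Pax8 +/- replicate 1 (2.88). In a linear model without moderation of the spread, its unadjusted p was 0.126. With the Tukey biweight, which gave the counts of the study, in place of the mean, its difference was 3.53 and that of Slc25a23 was 3.01. For Slc25a42 the biweight left Wt replicate 3 and Pax8 +/- replicate 1 without weight, so the larger value sets aside the highest Wt array and the lowest Pax8 +/- array.

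Slc25a17, a carrier of coenzyme A and related cofactors in the peroxisome and not in mitochondria, was the 1 member above background whose groups did not overlap. Its levels were 9.68, 8.96 and 9.86 in Wt and 9.99, 10.34 and 9.98 in Pax8 +/- islets. The gap between the groups was small, with Wt replicate 3 just under Pax8 +/- replicates 1 and 3. The difference was 0.61 (standard error 0.31, unadjusted p = 0.0806 by limma), and an exact 2-sided permutation test of 3 arrays against 3 cannot go below p = 0.1. Its size was smaller with the Tukey biweight (0.26). With an array left out it ran from 0.34 (without Wt replicate 2) to 0.79 (without Wt replicate 3).

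Slc25a51, which imports NAD into the matrix, lay at 12.48, 11.20 and 12.59 in Wt and at 11.65, 13.27 and 12.78 in Pax8 +/- islets. Its groups overlapped, with a difference of 0.48 (standard error 0.51). With an array left out it ran from 0.03 (without Wt replicate 2) to 0.94 (without Pax8 +/- replicate 1). Slc25a36, a carrier of pyrimidine nucleotides, was the most even of the brighter members, at means of 10.24 ± 0.18 and 10.26 ± 0.20 (SD, n = 3 each). Slc25a16, a member linked to coenzyme A, differed by 0.32. The S-adenosylmethionine carrier Slc25a26, the folate and flavin carrier Slc25a32 and the pyrimidine nucleotide carrier Slc25a33 were at background, with differences of -0.17, -0.26 and -0.17.

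No member of the carnitine group was above background on any array, and 3 of its 4 means were lower in Pax8 +/- islets. Slc25a20, the carnitine and acylcarnitine exchanger that fatty acids need to enter the matrix, was nearest to background, at 6.55 to 7.39 in Wt and 6.73 to 7.16 in Pax8 +/- islets. Slc25a47, a carrier known from liver, lay at 3.79, 4.15 and 3.21 in Wt and at 2.76, 3.50 and 3.36 in Pax8 +/- islets. These last groups overlapped, with a difference of -0.51 (standard error 0.33, unadjusted p = 0.164 by limma). Slc25a45 and Slc25a48 differed by -0.23 and -0.22.

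All 4 carriers of iron, manganese or glutathione had a higher mean in Pax8 +/- islets, and 0 were called. Slc25a39, which imports glutathione into mitochondria, lay at 10.88, 10.24 and 12.13 on Wt replicates 1, 2 and 3 and at 11.38, 12.88 and 12.30 on the Pax8 +/- replicates. Pax8 +/- replicates 2 and 3 were the highest arrays, Wt replicate 3 followed, and replicate 1 of Pax8 +/- was below it. The group means of 11.08 ± 0.96 and 12.19 ± 0.76 (SD, n = 3 each) differed by 1.11 (standard error 0.54, unadjusted p = 0.0729 by limma). Its paralog Slc25a40 was above background on 1 array and differed by 0.11. Of the mitoferrins, which bring iron in for heme and iron-sulfur clusters, Slc25a28 averaged 8.74 ± 0.14 and 9.07 ± 0.28 (SD, n = 3 each), and Slc25a37, the form of red cell precursors, was at background.

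Both members grouped here as relatives of the uncoupling proteins were at background on all arrays. Of the uncoupling proteins themselves, which carry other symbols, Ucp1 and Ucp3 were at background too, at differences of 0.41 and -0.50, and Ucp2 was not measured. Slc25a27 lay at 4.75, 5.74 and 4.85 in Wt and at 4.23, 4.75 and 3.55 in Pax8 +/- islets. Its groups met at Wt replicate 1 and Pax8 +/- replicate 2, and the difference of -0.94 (standard error 0.39, unadjusted p = 0.0434 by limma) fell short of the fold change of the study. Slc25a14 had non-overlapping groups, at 6.11 to 6.72 and 6.80 to 7.05, and a difference of 0.50 in the opposite direction.

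Of the 4 members without a settled substrate, only Slc25a46, an outer membrane protein tied to mitochondrial fission and fusion, was above background. It lay at 11.86, 12.30 and 12.20 in Wt and at 12.03, 11.89 and 12.59 in Pax8 +/- islets. No array stood out, the groups overlapped, and the difference was 0.05 (standard error 0.28) by the means, but -0.03 after quantile normalization. Slc25a43, Slc25a53 and Slc25a54 were at background, with differences of 0.61, 0.29 and 0.02. Among protein-coding genes, Slc25a43 is the neighbour of Slc25a5 on the X chromosome, and Slc25a54 that of Slc25a24 on chromosome 3.

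Single arrays stood high or low in many of the 14 brighter members. Of the 14, the highest Wt array was replicate 3 in 11, as in 51.3% of the 4812 gene probe sets above background on all arrays, upper end included. The lowest Wt array was replicate 2 in 10 (45.4% of those probe sets) and the lowest Pax8 +/- array was replicate 1 in 8 (39.3%). All 3 held together in 6 of the 14 (42.9%), against 22.2% of those 4812. The mean level of the 14 was 11.16, 10.79 and 11.68 on Wt replicates 1, 2 and 3 and 11.26, 11.97 and 11.69 on the Pax8 +/- replicates. The value on Pax8 +/- replicate 1 fell inside the Wt range in 12 of the 14 (85.7%), against 63.5% of the 4812 probe sets, and that on Wt replicate 3 inside the Pax8 +/- range in 9 (64.3%, against 66.7%). The mean level of the 11 beta-cell markers given above has the same lowest and highest Wt array and the same lowest Pax8 +/- array. Those of the hypoxia and dissociation stress genes have these arrays at the opposite ends. The 2 delta-cell markers below the top of the scale share the highest Wt array and the lowest Pax8 +/- array, but their lowest Wt array was replicate 1. The part of these markers in the carrier levels was not tested.

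Leaving out either Wt replicate 3 or Pax8 +/- replicate 1 raised the number of carriers called higher from 1 to 4. In each of these 4 carriers they were the highest Wt array and the lowest Pax8 +/- array. Without Wt replicate 3, Slc25a42, Slc25a23, Slc25a39 and Slc25a12 passed, at differences of 2.71, 2.78, 1.63 and 1.52, where 2.49% of all gene probe sets were called higher. Without Pax8 +/- replicate 1 the same 4 passed, at 2.88, 2.66, 1.51 and 1.62, where 3.33% were. Without Wt replicate 2 the difference of Slc25a23 fell to 1.26 and that of Slc25a39 to 0.68, and without Pax8 +/- replicate 2 that of Slc25a12 fell to 0.64. Without any 1 of the 4 arrays other than Wt replicate 3 and Pax8 +/- replicate 1, no carrier passed, where 0.108% to 0.234% of gene probe sets did.

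**Figure D4:**
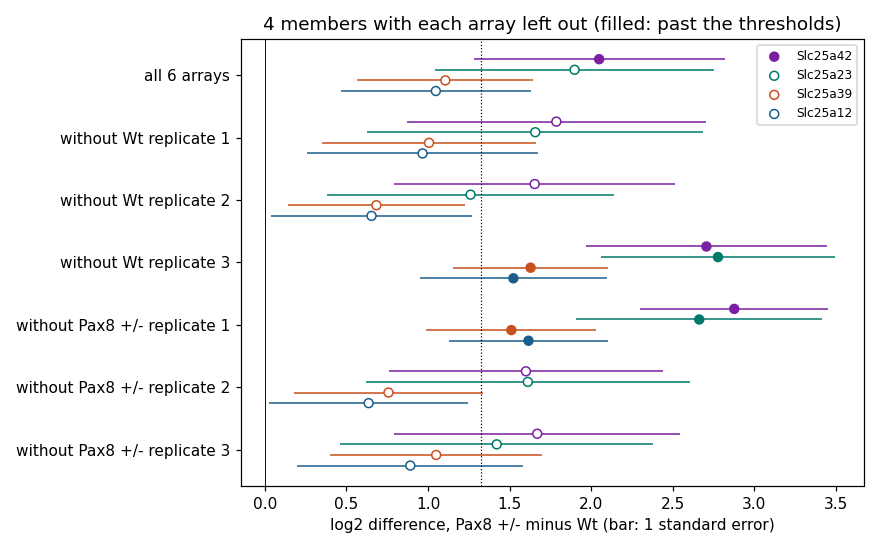
Log2 difference, Pax8 +/- minus Wt (x axis, bars 1 standard error from limma), of Slc25a42, Slc25a23, Slc25a39 and Slc25a12 with all 6 arrays and with each array left out in turn (y axis), filled where the thresholds of the study were passed and with a dotted line at a 2.5-fold change. All 4 points are filled without Wt replicate 3 and without Pax8 +/- replicate 1, and none without any of the other 4 arrays.

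Genes that work with the carriers showed 1 call, higher, among 45 measured of 52 listed, where 0.648% of all gene probe sets were called higher and 0.351% lower. Pcx, pyruvate carboxylase, which makes the oxaloacetate that the carriers export as citrate, malate or aspartate, lay at 7.46, 6.69 and 9.02 in Wt and at 8.45, 9.73 and 9.26 in Pax8 +/- islets. Wt replicate 3 was above Pax8 +/- replicate 1, the Wt replicates 1 and 2 were at background, and the difference was 1.42 (standard error 0.59, unadjusted p = 0.0403 by limma). Acly, which splits exported citrate in the cytosol, differed by 1.51 (standard error 0.69, unadjusted p = 0.0606), and Gpd2, of the glycerol phosphate shuttle, by 0.96 (standard error 0.49).

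Of the 9 measured genes of the TIM22 import route, 1 had a higher mean in Pax8 +/- islets, where 49.2% of all gene probe sets had, and 0 passed the thresholds. Only 1 of the 9, Tomm70a, was above background on all arrays, so the other means are of values at or near background. Tomm70a, the outer membrane receptor for carrier precursors, lay at 11.07, 11.28 and 10.66 in Wt and at 10.77, 10.13 and 10.01 in Pax8 +/- islets, which gave -0.70 as the difference (standard error 0.30, unadjusted p = 0.0499 by limma). Only Pax8 +/- replicate 1 reached into the Wt range. The 4 malate-aspartate shuttle enzymes, the 3 outer membrane channels of the Vdac genes, the 5 genes of the carnitine route and the 6 of urea and ornithine metabolism gave no call. Their median differences were 0.22, -0.30, 0.42 and -0.26. In the same order 4, 3, 1 and 0 of these genes were above background on all arrays.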

How the data were processed

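The authors hybridized islet RNA of 3 Wt and 3 Pax8 +/- samples to Clariom S arrays, which were scanned under Command Console Software 4.0 of Affymetrix. They deposited log2 values per probe set, made with RMA and the Transcriptome Analysis Console per the submitters' processing notes (for version, annotation and build: not given in the sources used here). RMA can shrink differences near background, which was not tested for these values.

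Of 28846 rows, 5222 negative and 1418 other controls were left out and 22206 gene probe sets were fitted with limma 3.58.1 in R 4.3.3 (lmFit, eBayes, 2-sided, no covariate, no filter on level), with Benjamini-Hochberg adjustment over all. Groups came from the sample labels. On simulated data with known changes the script was tested. Named with every array's value were members past the thresholds, members with separate groups above background on at least 3 arrays, the 4 with the smallest p in each direction, the 6 brightest and Slc25a42. Members, lists and rules were chosen with earlier results of these data known. The comparison of protein sequences that had been planned was not run. Alternatives were other fits, scalings and filters, a Tukey biweight, a fold change of 2, the 99th percentile of the negative controls, the replicate number as a block and each array left out. The number of arrays limits the precision.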

Additional observations from a re-analysis of the deposited data

How the results depend on the processing

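The count of members called higher, 1 with all arrays, was 0 without moderation of the spread, 2 with an intensity trend and robust settings (Slc25a23 and Slc25a42), 4 with array weights (Slc25a12, Slc25a23, Slc25a39 and Slc25a42), and 0 to 4 with an array left out, being 0 with Wt replicate 1 or 2 or Pax8 +/- replicate 2 or 3 left out. With the replicate number of the labels as a block it was 2 (Slc25a23, unadjusted p = 0.0123 by limma, and Slc25a42). Deviations of same-numbered arrays correlated at 0.00, -0.42 and 0.14. These values show no pairing of the samples by number, but 3 arrays per group cannot exclude one. Over all gene probe sets, 0.0856% were called higher without moderation, 0.743% with the trend and robust settings, 2.22% with array weights and 0.914% with the block. No member was called lower or reached an adjusted p under 0.05 under any alternative run. Slc25a46 turned to -0.0298 with quantile normalization and to -0.20 with a Tukey biweight, and without an array it ran from -0.16 to 0.19 and Slc25a5 from -0.28 to 0.11. With the 99th percentile of the negative controls as background, 11.9 to 12.4 on the arrays, 3 members were above it on all arrays and 38 on none. Signal over background limits what can be read for the 25 members above the 95th percentile on no array.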

Other observations

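Mtch2 and Mpc1, which carry other symbols and were above background in islets, can be set beside the family. Mtch2, a carrier relative of the outer membrane that inserts proteins there, lay at 9.72, 9.67 and 10.66 in Wt and at 10.79, 11.68 and 10.38 in Pax8 +/- islets, so that the log2 difference was 0.93 (standard error 0.41, unadjusted p = 0.0531 by limma). Mpc1, a subunit of the mitochondrial pyruvate carrier, stood at 12.78, 12.54 and 12.50 in Wt and at 12.65, 12.51 and 12.60 in Pax8 +/- islets, and the difference was -0.02 (standard error 0.23). Its levels were nearly the same on all 6 arrays, and the groups of both genes overlapped.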
